A study of Homo sapiens with 12 samples.

Results

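The genes described here are 9 members of the NRF2 antioxidant and glutathione programme: HMOX1, NQO1, GCLC, GCLM, TXNRD1, SRXN1, GSR, ME1 and OSGIN1. They were chosen by name as known NRF2-linked genes, with earlier results of these data known, as were the pathway lists below. Counts of members and list genes beside the shares over all genes are therefore descriptions, and no set test was run. Every probe set annotated to exactly 1 member was taken. This gave 19 probe sets, of which 16 passed the filter on dim signal (a log2 value above 4 on at least 3 arrays), against 20625 of 41091 probe sets with 1 gene symbol in the whole series. All 9 genes kept at least 1 probe set above the filter, among 11154 genes tested. OSGIN1 passed narrowly, with log2 values between 2.97 and 4.29.

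NRF2 (gene NFE2L2) is a transcription factor that KEAP1 holds in the cytoplasm and presents for degradation. Electrophiles and oxidants modify KEAP1, NRF2 then accumulates, pairs with a small MAF protein and binds antioxidant response elements (AREs) in the promoters of detoxifying genes, while BACH1 competes for the same elements. In the kidney tubule this programme is known for supplying glutathione and thioredoxin reducing power and for clearing quinones and heme.

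The cells were HK-2, an immortalized line of human proximal tubule epithelium, so that all replicates share 1 genetic background. CsA is read here as cyclosporin A, an immunosuppressant with known kidney toxicity, and the series asks which transcripts change when tubule cells are exposed to it. The 4 groups of 3 arrays were CsA for 48 h, vehicle control at 48 h, CsA for 12 h and vehicle control at 12 h. Every group was grown in DMEM mixed with Ham's F12, with added EGF, hydrocortisone, insulin, transferrin, selenite and antibiotics, and was treated when nearly confluent. The labels state neither how much CsA was added nor what the vehicle was. The labels call the replicates biological but do not say that they came from separate cultures, so p-values measure the spread between these samples.

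Between 42.2% and 42.8% of all 54675 probe sets had a log2 value over 4, depending on the array. The epithelial genes KRT8, KRT18, EPCAM, PAX8, CDH6 and MME were above 4 on every array, whereas the mature tubule genes LRP2, CUBN, AQP1, SLC34A1, GGT1 and ANPEP were under 4 on all 12. Of the same marker list, CDH16 and KRT19 were also above 4 on every array, while PAX2 (2.62 to 2.95) and SLC5A2 were under 4 on all 12. Endothelial and leukocyte markers (PECAM1, VWF, CDH5, KDR, PTPRC, CD14, CD3E) were under 4 on all arrays, as were the fibroblast markers COL1A2 and COL3A1. Of the other fibroblast markers COL1A1 (8.70 to 10.26) and LUM (6.70 to 9.61) were well above 4, and PDGFRB (3.88 to 5.70) and DCN (2.69 to 5.29) were near it. CsA 48 h replicate 3 had a low median signal of the 18 hybridization control probe sets (7.38, with 9.89 to 11.42 elsewhere). The poly-A controls were dim on replicate 1 at 48 h, at 4.13 for CsA and 3.78 for control, beside 8.26 to 9.99 on the remaining arrays. The log2 difference between the 3' and 5' probe sets of GAPDH was 0.14 on CsA 48 h replicate 3, with -0.11 to 0.02 elsewhere. For ACTB it was 1.22 on that array and 1.33 on control 48 h replicate 1, with 0.73 to 0.98 elsewhere. The labels name no hybridization batch. Values without these arrays are given beside the CsA results at 48 h whose call or count they change.

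Promoter sequence is shown for GCLM and NQO1, which changed most over time, and for ME1 and TXNRD1, which with GCLM were the members whose window held the ARE core. Windows are RefSeq sequence on GRCh38.p14, from 250 bases before to 50 bases after the annotated start, printed in the direction of transcription. Of the 9 genes, 7 had an entry in the RefSeq promoter table; HMOX1 and GSR did not. Capitals mark each match to the ARE core TGACNNNGC, read on both strands.
GCLM, chr1:93909381-93909680, minus strand: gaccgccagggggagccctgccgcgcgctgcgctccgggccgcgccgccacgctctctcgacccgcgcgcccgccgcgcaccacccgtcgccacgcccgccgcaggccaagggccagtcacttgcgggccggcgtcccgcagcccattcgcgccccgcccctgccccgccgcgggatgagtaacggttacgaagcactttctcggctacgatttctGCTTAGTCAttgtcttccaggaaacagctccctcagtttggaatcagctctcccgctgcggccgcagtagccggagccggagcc
NQO1, chr16:69726511-69726810, minus strand: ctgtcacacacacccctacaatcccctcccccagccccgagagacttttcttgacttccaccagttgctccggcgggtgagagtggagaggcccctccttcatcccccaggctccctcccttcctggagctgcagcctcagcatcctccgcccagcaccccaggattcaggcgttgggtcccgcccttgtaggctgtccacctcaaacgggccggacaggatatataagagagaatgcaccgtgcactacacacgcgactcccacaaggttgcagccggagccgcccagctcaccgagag
ME1, chr6:83431002-83431301, minus strand: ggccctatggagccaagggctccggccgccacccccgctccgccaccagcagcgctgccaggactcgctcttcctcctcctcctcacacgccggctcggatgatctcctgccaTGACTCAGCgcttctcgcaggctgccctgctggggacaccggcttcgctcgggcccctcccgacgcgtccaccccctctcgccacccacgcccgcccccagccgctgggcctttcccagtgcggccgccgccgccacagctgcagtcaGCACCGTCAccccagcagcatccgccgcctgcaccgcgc
TXNRD1, chr12:104215529-104215828, plus strand: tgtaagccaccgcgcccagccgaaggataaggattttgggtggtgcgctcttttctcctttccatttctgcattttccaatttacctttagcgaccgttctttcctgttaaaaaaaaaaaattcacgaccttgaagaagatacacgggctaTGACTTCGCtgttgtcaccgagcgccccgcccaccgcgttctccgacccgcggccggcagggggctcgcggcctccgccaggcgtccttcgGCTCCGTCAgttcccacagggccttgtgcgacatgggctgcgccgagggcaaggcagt

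The ARE core occurred in 3 of the 7 members with a window, against 4687 of 35114 promoters of the same length (13.3%). Members were counted by gene, with a match in any window, whereas the 13.3% counts single windows, so the shares differ in unit. In GCLM the match lay 34 bases before the start on the opposite strand, TGACTAAGC. ME1 held TGACTCAGC 137 bases before the start, whose first letters are also a match to the AP-1 motif TGANTCA, and another core, TGACGGTGC, on the opposite strand 12 bases after it. The TXNRD1 window held TGACTTCGC at 99 bases before the start and TGACGGAGC on the opposite strand 8 bases before it. Another annotated TXNRD1 start, with its window at chr12:104286782-104287081, held TGACAAAGC on the opposite strand 102 bases before it. No match was found in the NQO1, GCLC, SRXN1 and OSGIN1 windows, which says only that these letters are absent there. AP-1 letters occurred in 7.71% of all promoters and, among members, in ME1 and OSGIN1.

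No member passed the test for a CsA effect at 12 h or at 48 h, whereas several differed between times in both CsA and control cultures. GCLM transcripts were 4.43-fold lower at 48 h than at 12 h in CsA cultures and 4.18-fold lower in control cultures, and NQO1 transcripts 2.30-fold and 2.48-fold lower. ME1 fell in both kinds of culture, TXNRD1 and GSR passed in CsA cultures, and SRXN1 passed in control cultures. HMOX1, GCLC and OSGIN1 passed in no comparison over all 12 arrays.

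**Figure D1:**
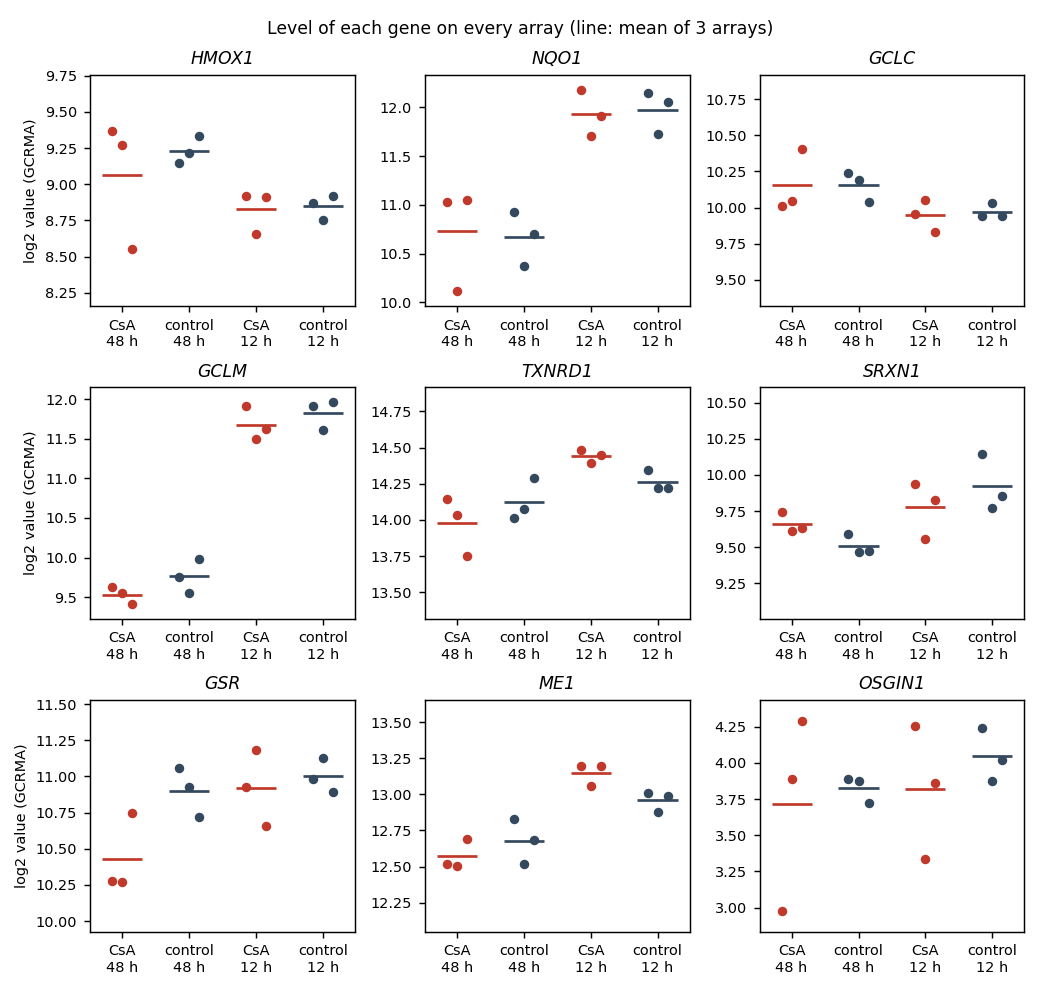
Log2 value (GCRMA) of the probe set standing for each of the 9 genes on every array (points), with the mean of 3 arrays as a line, for CsA and control at 48 h and at 12 h; each panel has its own scale. GCLM and NQO1 lie lower on all 48 h arrays than on all 12 h arrays, and CsA and control points overlap in most panels.

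At 12 h, 0 of 9 members passed (limma, Benjamini-Hochberg over 11154 genes), and 0 of 9 had an unadjusted p under 0.05. Over all genes 1 passed, which is 0.00897%, and 318 had an unadjusted p under 0.05, so the comparison had few calls anywhere. The members' median log2 change was -0.04, beside -0.01 over all genes. In the fit of the 12 h arrays alone no gene passed, members included.

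At 48 h, 0 of 9 members passed, against 16.1% of all genes in the fit of all arrays and 1.1% in the fit of the 48 h arrays alone. GSR was the 1 member with an unadjusted p under 0.05, against 3536 genes of 11154. The members' median log2 change was -0.11, beside -0.005 over all genes. Of the 9 values 7 were below 0, among them GCLC at -6.28e-05, and 2 were above 0, against 49.2% of all genes above 0. The fit of all arrays takes part of its spread from the tighter 12 h arrays (median SD 0.20 for CsA and 0.15 for control at 48 h, 0.11 for CsA and 0.10 for control at 12 h), so calls at 48 h are given in both fits. No member's CsA effect differed between 48 h and 12 h (0 of 9 past the threshold and 0 of 9 at an unadjusted p under 0.05, against 1.12% of all genes called and 1940 genes at an unadjusted p under 0.05).

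**Figure D2:**
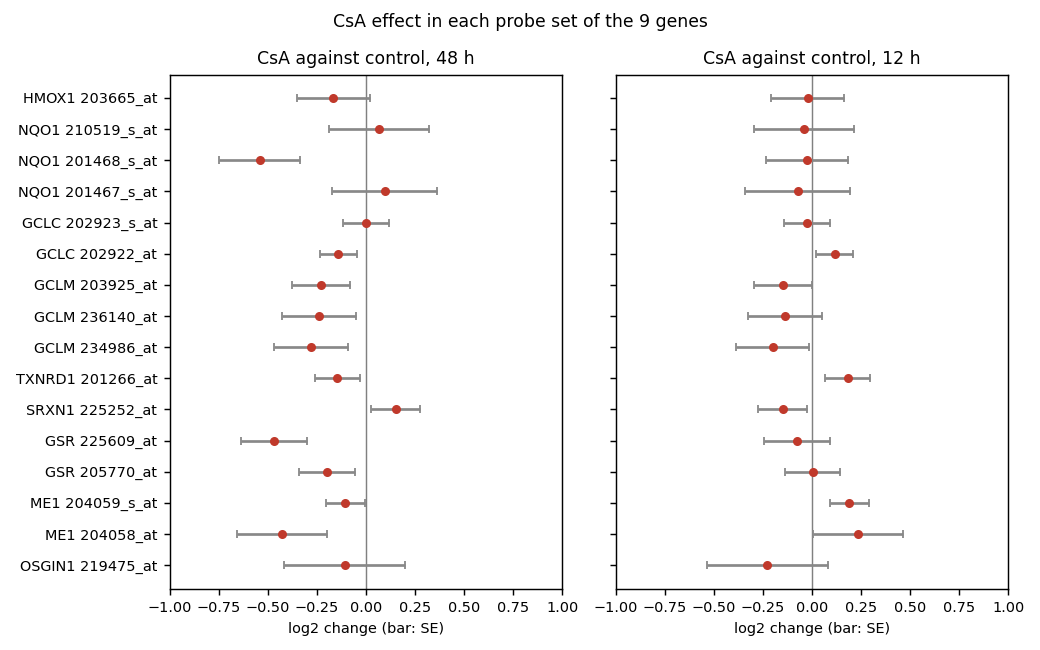
Log2 change with CsA against control for each of the 16 probe sets above the filter (points, with SE bars from limma), at 48 h on the left and at 12 h on the right. All points lie between -0.54 and 0.23, and none passed the threshold at either time, against 12.7% of all probe sets at 48 h and 0.00485% at 12 h.

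Glutathione synthesis begins with glutamate-cysteine ligase, made of a catalytic subunit, GCLC, and a modifier subunit, GCLM, that raises its efficiency. GCLM had log2 values of 9.63, 9.55 and 9.42 in CsA cultures at 48 h and 9.76, 9.55 and 9.98 in controls at 48 h. At 12 h the values were 11.91, 11.50 and 11.63 in CsA cultures and 11.91, 11.62 and 11.96 in controls. Every 48 h array lay below every 12 h array, while CsA and control arrays overlapped at each time.

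GCLM fell over time by 2.15 on the log2 scale in CsA cultures (SE 0.14, limma adjusted p = 1.38e-06) and fell by 2.06 in control cultures (SE 0.14, limma adjusted p = 3.57e-06). It ranked 283rd and 187th among the 11154 genes ordered from the deepest fall, in CsA and in control cultures. Its CsA effect was -0.23 at 48 h (95% confidence interval -0.55 to 0.09) and -0.15 at 12 h (-0.47 to 0.17). All 3 GCLM probe sets gave the same picture: their log2 changes over time were -2.15, -2.28 and -2.30 in CsA cultures, and -2.06, -2.17 and -2.22 in controls. The fall remained past the threshold without any single array, and in bulk RNA it cannot be told apart from a shift in the share of cells that express the gene.

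GCLC, the catalytic subunit, did not pass over time. Its brightest probe set read 10.01, 10.04 and 10.41 in CsA cultures at 48 h, 10.24, 10.19 and 10.04 in controls at 48 h, 9.95, 10.05 and 9.83 in CsA cultures at 12 h and 9.94, 10.03 and 9.94 in controls at 12 h. The control arrays at 48 h were all above those at 12 h by a small margin, and the CsA arrays overlapped. The log2 change over time was 0.21 in CsA cultures (SE 0.11, limma adjusted p = 0.146) and 0.18 in control cultures (SE 0.11, adjusted p = 0.216). A dimmer probe set, 202922_at, was higher at 48 h in controls by 0.43 (SE 0.09, limma adjusted p = 0.00454 over all probe sets) and differed by 0.17 in CsA cultures (adjusted p = 0.154), so the probe sets disagree on the call. With CsA the GCLC change was -6.28e-05 at 48 h (interval -0.25 to 0.25) and -0.03 at 12 h (-0.28 to 0.23). Across the 12 arrays GCLC and GCLM had a Pearson correlation of -0.71, as a description, since these arrays share the contrast between times.

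GSR, glutathione reductase, regenerates glutathione from its oxidized form with NADPH. Its log2 values were 10.28, 10.27 and 10.75 in CsA cultures at 48 h and 11.06, 10.93 and 10.72 in controls at 48 h. At 12 h they were 10.93, 11.18 and 10.66 in CsA cultures and 10.98, 11.13 and 10.89 in controls. CsA replicates 1 and 2 at 48 h were the lowest arrays of the series, and replicate 3 overlapped the controls.

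The CsA effect on GSR at 48 h was -0.47 (SE 0.17, 95% confidence interval -0.84 to -0.10), with a limma adjusted p of 0.0795 over all arrays and 0.187 in the fit of 48 h arrays only. Without CsA 48 h replicate 3, the array with low hybridization controls, the effect was -0.63 and passed (adjusted p = 0.0214); without replicate 1 of both 48 h groups it was -0.31 (adjusted p = 0.369). A dimmer GSR probe set, 205770_at, gave -0.20 (adjusted p = 0.386). In CsA cultures GSR fell over time by 0.49 (limma adjusted p = 0.0285, SE 0.17). That call was lost in the CsA arrays alone (0.0812), under the replicate block (0.0649) and without CsA 12 h replicate 1 or 2 or CsA 48 h replicate 1 or 2 (highest adjusted p 0.113). The probe set 205770_at fell by 0.41 over time in CsA cultures (SE 0.14, adjusted p = 0.0335 over all probe sets), without overlap between times. In control cultures the GSR change was -0.10 (adjusted p = 0.666), and -0.21 for 205770_at (adjusted p = 0.265). The difference between CsA and control cultures over time was -0.39 for GSR and did not pass (limma adjusted p = 0.416).

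NQO1 reduces quinones in a 2-electron step that avoids semiquinone radicals, and its transcript is a common readout of NRF2. It had log2 values of 11.03, 10.12 and 11.05 in CsA cultures at 48 h and 10.92, 10.37 and 10.71 in controls at 48 h. At 12 h it read 12.18, 11.71 and 11.91 in CsA cultures and 12.15, 11.72 and 12.06 in controls. The 48 h arrays were all below the 12 h arrays, replicate 2 was the lowest array in each of the 4 groups, and CsA and control overlapped at both times.

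NQO1 fell over time by 1.20 on the log2 scale in CsA cultures (SE 0.25, limma adjusted p = 0.00215) and by 1.31 in control cultures (SE 0.25, limma adjusted p = 0.00168). Its other probe sets fell by 2.09 and 1.26 in CsA cultures and by 1.58 and 1.43 in controls. With CsA the change was 0.07 at 48 h (interval -0.49 to 0.62) and -0.04 at 12 h (-0.60 to 0.51). At 48 h the probe sets differed in sign: 201468_s_at read 9.16, 8.48 and 9.23 in CsA cultures and 9.79, 9.34 and 9.37 in controls, with no overlap, which is -0.54 on the log2 scale (SE 0.21, limma adjusted p = 0.114 over all arrays, 0.290 over the 48 h arrays only), whereas 201467_s_at gave 0.09. The direction of a CsA effect on NQO1 at 48 h is therefore not settled by these probe sets.

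**Figure D3:**
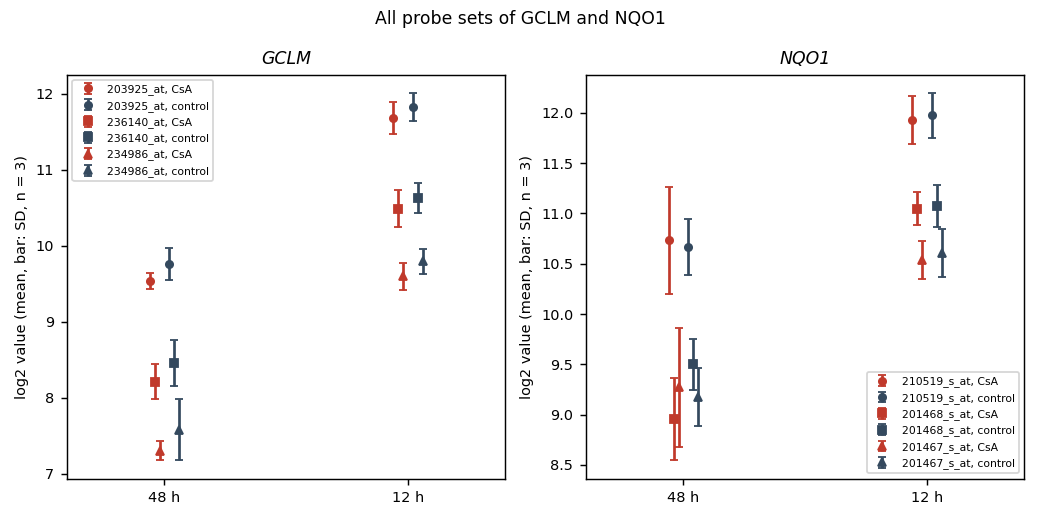
Mean log2 value (SD bars, n = 3 arrays) of all 3 probe sets of GCLM on the left and of NQO1 on the right, at 48 h and 12 h, with CsA in red and control in dark blue; marker shapes separate the probe sets. All 6 probe sets are lower at 48 h in both kinds of culture, and for 201468_s_at of NQO1 the CsA mean at 48 h, 8.96, lies under the control mean, 9.50.

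HMOX1 encodes heme oxygenase-1, which opens heme to biliverdin, carbon monoxide and iron, and which BACH1 represses. Its single probe set read 9.37, 9.27 and 8.55 in CsA cultures at 48 h and 9.15, 9.21 and 9.33 in controls at 48 h. At 12 h the values were 8.92, 8.66 and 8.91 in CsA cultures and 8.87, 8.75 and 8.92 in controls. CsA 48 h replicate 3, the array with low hybridization controls, was the lowest of all 12, and the other CsA arrays at 48 h lay among or just above the controls.

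The HMOX1 change with CsA was -0.17 at 48 h, with a 95% confidence interval from 0.674-fold to 1.18-fold, and -0.02 at 12 h, with an interval from 0.744-fold to 1.30-fold. Without CsA 48 h replicate 3 the 48 h value was 0.09 (limma adjusted p = 0.585). Over time HMOX1 differed by 0.24 in CsA cultures (limma adjusted p = 0.301) and by 0.38 in control cultures (adjusted p = 0.114). The control value passed in the control arrays alone (adjusted p = 0.0122) and without CsA 48 h replicate 3 (0.00622), and the CsA value without that array was 0.49 (adjusted p = 0.00251). The HMOX1 values over time were opposite in sign to those of GCLM and NQO1, and whether they passed turned on 1 array.

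TXNRD1, cytosolic thioredoxin reductase, is a selenoprotein that keeps thioredoxin reduced with NADPH. It read 14.15, 14.03 and 13.75 in CsA cultures at 48 h, against 14.01, 14.07 and 14.29 in controls at 48 h, and 14.48, 14.40 and 14.45 in CsA cultures at 12 h, against 14.35, 14.22 and 14.22 in controls at 12 h. At 12 h every CsA array was above every control array, a separation that 2 members showed (TXNRD1 and ME1) and that 6.53% of all genes showed in that direction. At 48 h the groups overlapped.

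The CsA change of TXNRD1 was -0.15 at 48 h (SE 0.11, limma adjusted p = 0.394) and 0.18 at 12 h (SE 0.11, adjusted p = 0.9999), and the difference of these effects was -0.33 (adjusted p = 0.314). Over time it fell by 0.47 in CsA cultures (SE 0.11, limma adjusted p = 0.00486, and 0.0231 in the CsA arrays alone), while in controls the change was -0.14 (adjusted p = 0.348). That difference between CsA and control cultures is the same contrast as the -0.33 above, which did not pass.

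SRXN1, sulfiredoxin, restores over-oxidized peroxiredoxins. Its log2 values were 9.74, 9.61 and 9.63 in CsA cultures at 48 h and 9.59, 9.46 and 9.48 in controls at 48 h, so that CsA was higher on every array, as for 13.9% of all genes. At 12 h it read 9.94, 9.56 and 9.83 in CsA cultures and 10.15, 9.77 and 9.86 in controls, with overlap. The CsA change was 0.15 at 48 h (SE 0.12, limma adjusted p = 0.420) and -0.15 at 12 h. In control cultures SRXN1 fell over time by 0.41 (limma adjusted p = 0.0169, SE 0.12). It no longer passed without control 12 h replicate 1 (-0.30, adjusted p = 0.0694) or control 48 h replicate 2 (-0.39, adjusted p = 0.0505). In CsA cultures the change was -0.11 (adjusted p = 0.458). The difference between CsA and control cultures over time was 0.30 and did not pass (limma adjusted p = 0.388).

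ME1, cytosolic malic enzyme, makes NADPH that the reductases above consume. It read 12.52, 12.51 and 12.69 in CsA cultures at 48 h and 12.83, 12.52 and 12.69 in controls at 48 h. At 12 h it read 13.19, 13.06 and 13.20 in CsA cultures and 13.01, 12.88 and 12.99 in controls. CsA arrays were above control arrays at 12 h without overlap and overlapped them at 48 h, and the 48 h arrays lay under the 12 h arrays in both kinds of culture.

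ME1 fell over time by 0.58 on the log2 scale in CsA cultures (SE 0.10, limma adjusted p = 0.000548) and by 0.28 in controls (SE 0.10, limma adjusted p = 0.0349). The control call was lost in the control arrays alone (adjusted p = 0.0581) and without control 12 h replicate 1 or 3 or control 48 h replicate 2 or 3 (highest adjusted p 0.126). With CsA the change was -0.11 at 48 h (SE 0.10, adjusted p = 0.492) and 0.19 at 12 h (SE 0.10, adjusted p = 0.9999). A dimmer probe set, 204058_at, gave -0.43 at 48 h and 0.23 at 12 h with CsA, neither past the threshold. Over time it fell by 0.99 in CsA cultures (limma adjusted p = 0.00487), whereas in controls its change was -0.33 with overlapping arrays (adjusted p = 0.291). This probe set therefore did not pass for the control fall of ME1. The difference between CsA and control cultures over time was -0.29 for ME1 (limma adjusted p = 0.301) and -0.66 for 204058_at (adjusted p = 0.361). Neither passed.

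OSGIN1, an oxidative stress-induced growth inhibitor, was near background. It read 2.97, 3.89 and 4.29 in CsA cultures at 48 h, 3.89, 3.87 and 3.72 in controls at 48 h, 4.26, 3.33 and 3.86 in CsA cultures at 12 h and 4.24, 3.88 and 4.02 in controls at 12 h. All groups overlapped, and 0.457% of genes tested were dimmer. Its CsA change was -0.11 at 48 h (interval -0.79 to 0.57) and -0.23 at 12 h (-0.91 to 0.45). The 3 probe sets that missed the filter, 1555330_at of GCLC, 211204_at of ME1 and 1561080_at of TXNRD1, read between 2.08 and 2.38 on every array.

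Over time, 5 of 9 members passed in CsA cultures and 4 of 9 in control cultures, all lower at 48 h. Over all genes 53.5% passed in CsA cultures (25.8% lower) and 45.5% in control cultures (20.9% lower), so a call over time is common in these data. In fits of the compared arrays alone 4 members were lower in CsA cultures, and 3 were lower and 1, HMOX1, higher in control cultures, against 45.8% of all genes called in CsA cultures (22.2% lower) and 47.5% in control cultures (22.2% lower and 25.2% higher). The members' median log2 change was -0.47 in CsA cultures, beside 0.03 over all genes, and -0.22 in control cultures, beside 0.03.

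Arrays did not overlap between times for NQO1, GCLM, TXNRD1 and ME1 in CsA cultures, all lower at 48 h, as for 27.9% of all genes. In control cultures NQO1, GCLM, SRXN1 and ME1 were lower without overlap, as for 28.4% of all genes, and HMOX1 and GCLC higher, as for 31.8%. Of the 16 probe sets, 11 passed in CsA cultures (47.4% of all probe sets) and 9 in control cultures (38.5%). All of these were lower at 48 h except 202922_at of GCLC in control cultures, which was higher (0.43). Which member fell furthest was the same in both kinds of culture: GCLM, then NQO1.

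**Figure D4:**
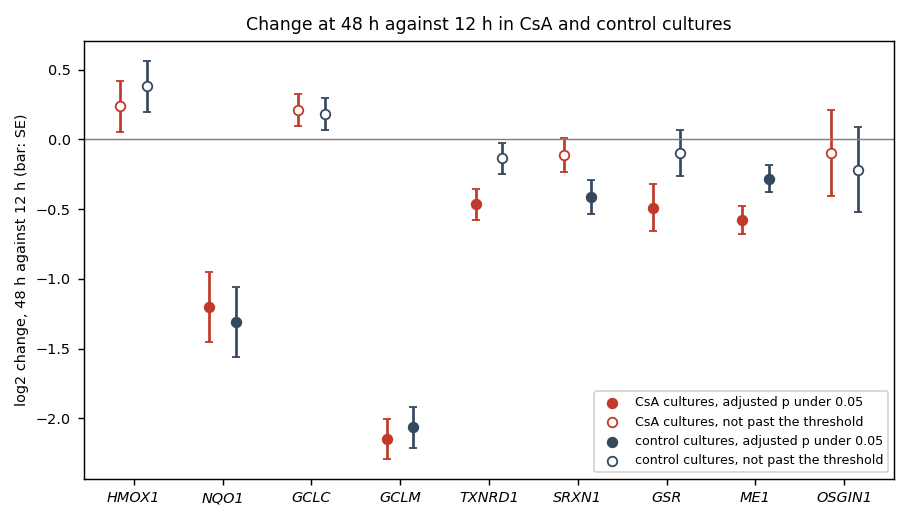
Log2 change at 48 h against 12 h for the 9 genes (SE bars, limma), in CsA cultures (red) and control cultures (dark blue); filled points have an adjusted p under 0.05. GCLM sits near -2.1 and NQO1 near -1.3 in both, while HMOX1 and GCLC lie above 0 with open points.

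For the 3 members whose group means spanned the widest range, the genes of most similar pattern over the 12 arrays were named by Pearson correlation, as a description, since all of these genes share the step between times. For GCLM they were TTF2 (0.996), PGK1 (0.991) and EPDR1 (0.990). For NQO1 they were ITGA6 (0.982), PRR5L (0.979) and PLIN3 (0.976), and for ME1 FDPS (0.953), OSMR (0.951) and TRIM14 (0.951). Among the members, GCLM was closest to NQO1 (0.925) and ME1 (0.886).

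The regulators of the pathway were measured through 13 of 15 listed genes. NFE2L2 itself had a CsA change of -0.06 at 48 h (SE 0.15) and -0.02 at 12 h (SE 0.15), and KEAP1 of -0.13 at each time; none passed. MAFF, a small MAF partner, was higher with CsA at 48 h: 11.89, 11.80 and 12.19 in CsA cultures, against 11.39, 11.01 and 10.86 in controls, without overlap. Its log2 change was 0.88 (SE 0.23, limma adjusted p = 0.0287), and adjusted p = 0.0699 over the 48 h arrays only. The call was lost without CsA 48 h replicate 3 (adjusted p = 0.0657) and without replicate 1 of both 48 h groups (0.0751). At 12 h the change was 0.64 and did not pass. MAFG had 0.43, BACH1 0.11 and SQSTM1, which can sequester KEAP1, -0.20 at 48 h, none past the threshold. In the list 1 gene was higher and 2 lower with CsA at 48 h, DPP3 (-0.39) and RBX1 (-0.35), against 6.2% of all genes higher and 9.89% lower; over the 48 h arrays only, 0 passed, and 0 without replicate 1 of both 48 h groups. RBX1 was also lost without CsA 48 h replicate 3 (adjusted p = 0.0807), where 0 genes of the list were higher and 2 lower, DPP3 among them.

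Over time in control cultures, whose 48 h arrays are also the controls of the CsA comparison at 48 h, 5 regulators were higher and 3 lower at 48 h, against 24.6% of all genes higher and 20.9% lower. KEAP1 fell by 0.57 (SE 0.10, limma adjusted p = 0.00122). BACH1, the repressor at AREs, was higher by 0.87 (SE 0.18, adjusted p = 0.0024), SQSTM1 by 0.84 (adjusted p = 0.00136), NFE2L1 by 0.82 and MAFF by 0.89. NFE2L2 had 0.34 (SE 0.15, adjusted p = 0.0887), which did not pass. In CsA cultures the same contrast gave -0.58 for KEAP1 and 0.30 for NFE2L2.

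Among genes that supply and break down glutathione, 10 of 13 listed were measured. Of these, 7 were higher and 1 lower at 48 h in control cultures, against 24.6% of all genes higher and 20.9% lower. Their median log2 change was 1.03, beside 0.03 over all genes. SLC7A11, the light chain of the cystine and glutamate exchanger, read 11.03, 11.19 and 11.30 in controls at 48 h, against 7.18, 7.09 and 7.44 in controls at 12 h, and rose by 3.94 (SE 0.23, limma adjusted p = 1.64e-06). SLC3A2, its heavy chain, rose by 3.07, CHAC1, which cleaves glutathione, by 3.50, and CTH, which makes cysteine from cystathionine, by 2.15. The 1 gene lower at 48 h was CHAC2, a relative of CHAC1, which fell by 1.71. GGCT (-0.31) and GSS (-0.01) did not pass. In CsA cultures SLC7A11 rose by 2.62, SLC3A2 by 3.75, CHAC1 by 2.74 and CTH by 2.50.

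With CsA at 12 h the largest values of that list were those of CHAC1 and SLC7A11. CHAC1 read 6.13, 5.84 and 7.07 in CsA cultures, against 5.23, 5.05 and 4.82 in controls, and SLC7A11 read 8.46, 7.77 and 8.86 in CsA cultures, against 7.18, 7.09 and 7.44 in controls. Neither overlapped between groups, as for 6.53% of all genes in that direction, and neither passed over all genes (log2 changes 1.31 and 1.13, limma adjusted p = 0.731 for each). At 48 h the values were 0.56 for CHAC1 and -0.19 for SLC7A11. SLC3A2 was higher at 48 h by 0.76 (SE 0.12, limma adjusted p = 0.00361), and adjusted p = 0.0596 over the 48 h arrays only. OPLAH had 0.59 (SE 0.15, limma adjusted p = 0.0248, and 0.112 over the 48 h arrays only). With these, 2 genes of the list were higher and 0 lower with CsA at 48 h, against 6.2% of all genes higher and 9.89% lower. Over the 48 h arrays only 0 passed, and without replicate 1 of both 48 h groups 1 was higher.

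**Figure D5:**
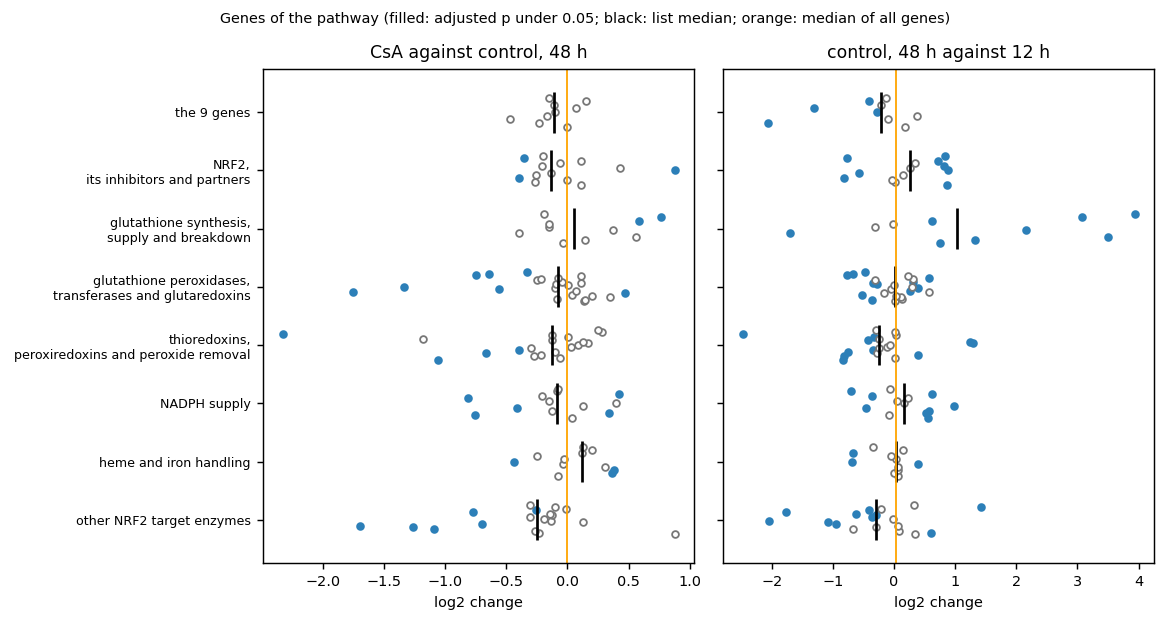
Log2 change of each measured gene of 8 lists, CsA against control at 48 h on the left and control cultures at 48 h against 12 h on the right; filled points have an adjusted p under 0.05 in the fit of all arrays, black bars are list medians and the orange line is the median of all genes. The 9 genes have no filled point on the left and 4 on the right, and the glutathione supply list has 7 filled points to the right of 0 and 1 to the left over time. TXNIP, the leftmost point on the left, was near background with CsA.

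Of 18 measured genes among 23 other NRF2 target enzymes, 6 were lower and 0 higher with CsA at 48 h, against 9.89% of all genes lower and 6.2% higher. Over the 48 h arrays only, 2 of them were lower, against 0.825% of all genes. AKR1C3, an aldo-keto reductase of steroids and prostaglandins, read 9.74, 10.01 and 9.51 in CsA cultures and 11.38, 11.90 and 11.06 in controls, which is -1.70 on the log2 scale (SE 0.22, limma adjusted p = 0.00162 over all arrays, 0.0454 over the 48 h arrays only). AKR1C2, its close relative, fell by 1.26 (adjusted p = 0.000796, and 0.0450 alone). Its signal was dim, with means of 4.35 in CsA cultures and 5.61 in controls at 48 h, close to the filter's 4. AKR1C1 (-1.09, limma adjusted p = 0.0356, and 0.112 alone) is also among the 6, and AKR1C2 and AKR1C3 are the 2. The AKR1C genes are near-identical, and probe sets may read more than 1 of them. These counts may therefore not stand for separate genes. PIR, pirin, had -0.77 (adjusted p = 0.0086, 0.0577 alone and 0.0648 without replicate 1 of both 48 h groups). Without replicate 1 of both 48 h groups 2 genes of this list were lower, and without CsA 48 h replicate 3, 4 were lower and 1 higher.

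Among thioredoxins, peroxiredoxins and enzymes of peroxide removal, 4 of 19 measured genes were lower and 0 higher with CsA at 48 h, beside the same shares over all genes, 9.89% lower and 6.2% higher. Of these, 1 was also lower over the 48 h arrays only, and 1 without replicate 1 of both 48 h groups. Without CsA 48 h replicate 3, 5 genes of the list were lower and 0 higher. CAT, catalase, read 9.29, 9.69 and 9.40 in CsA cultures and 10.43, 10.59 and 10.53 in controls, and fell by 1.06 (SE 0.12, limma adjusted p = 0.00111, and 0.0454 alone). TXNIP, which binds and inhibits thioredoxin, read 3.02, 3.09 and 3.80 in CsA cultures, all under the filter's 4, and 5.55, 6.39 and 4.95 in controls (adjusted p = 0.00767, 0.0570 alone and 0.0723 without replicate 1 of both 48 h groups), and no size is given because the CsA arrays were near background.

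Glutathione peroxidases, transferases and glutaredoxins had 1 gene higher and 6 lower of 23, and 0 over the 48 h arrays only, with GPX3, the secreted peroxidase, at -1.75 (adjusted p = 0.00861, and 0.0931 alone). NADPH supply had 2 higher and 3 lower of 13, and heme and iron handling 2 higher and 1 lower of 11, none of them past it over the 48 h arrays only. These counts stand beside 6.2% of all genes higher and 9.89% lower. Without replicate 1 of both 48 h groups, 0 genes of these 3 lists passed. Without CsA 48 h replicate 3 the counts were 1 higher and 5 lower, 2 higher and 3 lower, and 2 higher and 0 lower, in the same order of lists.

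The medians of these lists with CsA at 48 h lay between -0.25, for the other NRF2 target enzymes, and 0.12, for heme and iron handling, beside -0.005 over all genes. At 12 h no gene of any list passed. Of the 4 fibroblast markers above the filter, COL1A1 and LUM had CsA changes of -0.95 and -1.68 at 48 h (adjusted p = 0.014 and 0.0142, and 0.0951 and 0.0788 over the 48 h arrays only). DCN (-0.86, adjusted p = 0.312) and PDGFRB (0.21, adjusted p = 0.649) did not pass. The mean log2 value of these 4 was 5.96, 5.80 and 7.03 in CsA cultures at 48 h and 7.33, 7.05 and 6.87 in controls at 48 h, so CsA replicate 3 lay among the controls. Their median change was -0.91, and -1.43 without that array, where 3 were lower, while without replicate 1 of both 48 h groups 0 passed. Both medians rest partly on DCN, whose mean in CsA cultures at 48 h was 3.68, under the filter's 4, so their size is uncertain. Their part in the list counts was not tested. Over time in control cultures, PIR fell by 1.77, the carbonyl reductases CBR3 and CBR1 had log2 changes of -2.04 and -1.08, and PRDX1, a peroxiredoxin, of -0.75. The other NRF2 target enzymes had 8 genes lower and 2 higher of 18 in that contrast, against 20.9% of all genes lower and 24.6% higher. Their median was -0.29, beside 0.03 over all genes.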

How the data were processed

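Total RNA of HK-2 cells was measured on 12 Affymetrix arrays, 3 in each of 4 groups taken from the labels. Each deposited value summarises 1 probe set on a log2 scale; per the submitters' processing notes the authors used GCRMA, whose settings are not given. GCRMA corrects background from probe sequence, and dim probe sets are pressed toward a floor. Array count limits the precision.

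Of 54675 probe sets, 41097 had 1 gene symbol in the platform annotation, 1801 had several and 11777 none. Affymetrix control probe sets were left out, which left 41091. Probe sets above a log2 value of 4 on at least 3 arrays were kept, and the one with the highest mean stood for its gene. Of the 11154 genes, 11145 matched the RefSeq gene table by identifier. All 12 arrays entered 1 model of 4 groups in limma 3.58.1 (R 4.3.3, 8 residual degrees of freedom), two-sided, with Benjamini-Hochberg adjustment over all genes and a threshold of 0.05. Every single-gene adjusted p in the text comes from limma. Fits of the 6 compared arrays alone are given beside calls at 48 h. Over time they are given for the counts of members and for some members, not for single list genes. Those over time, and values of list genes without single arrays, were an addition made once the data had been seen. Simulated data with known changes were used to check the model.

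The 9 members, the pathway lists and the naming rule were chosen with earlier results of these data known. The rule names all members, NFE2L2, KEAP1, BACH1, MAFF, MAFG, SQSTM1, SLC7A11 and CHAC1, up to 4 called genes of smallest p per list and contrast, and the 3 genes most like each of 3 members. Some genes that the rule names, among them GPX8, MGST1, NNT and PGLS, are not described and enter counts only. The same holds for CBS and other list genes outside the rule. CHAC2 was named after its values were seen. Replicate numbers in the labels were checked for pairing by correlating deviations from group means: same-numbered arrays correlated at 0.467 to 0.577 for CsA with control at 12 h, and at 0.278 to 0.325 for controls of both times, so the numbers pair there, but not every pair exceeded 0.1 at 48 h (0.096, 0.300 and -0.051) or between CsA times (0.222, 0.046 and -0.006). No pair of arrays held identical values. Alternatives covered the filter, the probe set rule, normalization, array weights, the prior, the replicate block and left-out arrays. Promoter motifs were searched as plain letters on both strands in Python 3.11.15.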

Additional observations from a re-analysis of the deposited data

Results flagged for a closer look

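None of the 9 genes was picked out. The CsA effect differed between 48 h and 12 h for 5 genes of the surrounding lists, by the test of the difference itself in limma with Benjamini-Hochberg adjustment over all genes. AKR1C2, an aldo-keto reductase, had a difference of -1.12 (SE 0.18, adjusted p = 0.0290), with a CsA effect of -1.26 at 48 h and -0.14 at 12 h. The AKR1C2 mean in CsA cultures at 48 h was 4.35, close to the filter's log2 value of 4. For the related AKR1C3 the difference was -1.59 (SE 0.32, adjusted p = 0.0474), with -1.70 at 48 h and -0.11 at 12 h. CAT, catalase, had -0.84 (SE 0.17, adjusted p = 0.0474), with -1.06 at 48 h and -0.21 at 12 h. Among epithelial markers, CDH6, a kidney cadherin, had -1.25 (SE 0.14, adjusted p = 0.0163), with -1.16 at 48 h and 0.09 at 12 h, and PAX8, a nephron transcription factor, had 0.99 (SE 0.15, adjusted p = 0.0278), with 1.09 at 48 h and 0.10 at 12 h. The share of the whole table past this test was 1.12%. On leaving out each of the 12 arrays in turn, AKR1C2, AKR1C3 and CAT still passed in 3 cases each, PAX8 in 4 and CDH6 in 9 (highest adjusted p 0.0923, 0.127, 0.127, 0.0852 and 0.0669, in that order of genes). None of the 5 passed without CsA 12 h replicate 3, control 12 h replicate 1 or control 12 h replicate 3, each of which left 0 genes past the threshold over the whole table, nor without both 48 h replicate 1 arrays (lowest adjusted p 0.0620, for CDH6). Groups of 3 arrays are too small for the screen of single arrays.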

How the results depend on the processing

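Member values under alternatives numbered 994, of which 919 kept direction and side of the threshold, 16 no longer passed, 10 newly passed and 49 changed sign. GCLM and NQO1 fell over time past the threshold in CsA and control cultures under every alternative run. The number of arrays and, for OSGIN1, signal near background limit precision; the causes of the shifts below were not tested.

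All genes called with CsA at 12 h (1) became 2 with no filter and with the 12 h arrays alone plus replicate block, and 0 with the mean of probe sets, the 12 h arrays alone, the replicate block, centring, repeated quantile normalization and without both 48 h replicate 1 arrays. At 48 h (1795) they became 123 over the 48 h arrays only, 24 when the replicate block was added to that fit, 2981 with array weights and 480 without both replicate 1 arrays. For the difference of effects (125) they became 49 with no filter, 370 with the replicate block, 1199 with array weights, 192 with trend and robust prior and 2 without both replicate 1 arrays. Called members with CsA at 48 h (0) became 1, GSR, with array weights. The replicate block left members at 0 with CsA at 12 h and 48 h and 4 over time in controls, and lost GSR over time in CsA cultures, where 4 passed.

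Signs changed as follows. With the mean of probe sets, GCLC had 0.045 at 12 h, and at 48 h NQO1 -0.13, NFE2L2 0.041 and SQSTM1 0.0058; the differences of effects were -0.080 for NQO1 and -0.12 for GCLC. With centring GCLC had 0.037 at 48 h; with quantile normalization GCLC 0.0069 and OSGIN1 0.040 there, and OSGIN1 0.036 over time in CsA cultures. With array weights HMOX1 had 0.089 and BACH1 -0.12 at 48 h, and the differences were 0.13 for HMOX1, -0.10 for GCLC, 0.0090 for GCLM and -0.41 for OSGIN1. Without both 48 h replicate 1 arrays, the 48 h values were 0.11 for GCLC, 0.29 for OSGIN1 and 0.13 for NFE2L2, and OSGIN1 had 0.27 over time in CsA cultures.

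Leaving out each array in turn gave 0 to 1 genes at 12 h, 731 to 2175 at 48 h and 0 to 442 for the difference, and 0 to 1 members at 48 h and 2 to 5 over time in controls. CsA values at 12 h ranged between -0.070 and 0.064 for HMOX1, -0.17 and 0.072 for NQO1, -0.45 and 0.014 for OSGIN1, -0.079 and 0.031 for GCLC, -0.21 and 0.053 for GSR and -0.11 and 0.058 for NFE2L2. At 48 h they ranged between -0.32 and 0.089 for HMOX1, -0.094 and 0.37 for NQO1, -0.40 and 0.26 for OSGIN1, -0.13 and 0.071 for GCLC, -0.19 and 0.076 for NFE2L2, -0.14 and 0.24 for BACH1 and -0.37 and 0.0069 for SQSTM1. The differences of effects ranged between -0.30 and 0.11 for HMOX1, -0.052 and 0.41 for NQO1, -0.17 and 0.49 for OSGIN1, -0.10 and 0.10 for GCLC and -0.19 and 0.035 for GCLM, and OSGIN1 over time in CsA cultures between -0.39 and 0.27.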
